A study of Mus musculus with 468 samples.

Results

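The complement transcripts of mouse fat were followed here through 8 genes, namely C1qa, C1qb, C1qc, C2, C3, C4b, Cfb and Serping1, taken by symbol from a table of 23180 genes. All 8 passed the filter on low counts, which kept 18380 genes with at least 10 estimated counts in at least 50% of the libraries. The libraries came from the adipose tissue, by the methods of the study the gonadal fat pad, of Diversity Outbred (DO) mice. DO mice are an outbred stock bred from 8 inbred founder strains, so every animal carries its own mixture of founder alleles. Each mouse gave 1 library of polyadenylated RNA, and the label of every mouse names the same HFHS diet, rich in fat and sugar. The labels thus define 1 group, with no control diet and no age, sex or batch, and n is every mouse of the series unless a cluster is named. The comparisons are therefore between genes across mice: how each complement transcript varied with Adgre1, which encodes the macrophage surface protein F4/80, with Adipoq, the adipocyte hormone adiponectin, and with Pdgfra, a receptor of adipocyte progenitors and other fibroblasts. Upk3b, a gene of the mesothelium that covers visceral fat, served as an additional reference. In bulk tissue, fewer cells of a type and less RNA per cell cannot be told apart.

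Complement is a cascade of proteins that marks microbes, immune complexes and dying cells for removal. In the classical pathway, C1q (chains encoded by C1qa, C1qb and C1qc) recognizes the target, and its attached proteases C1r and C1s cleave C4 and C2, which together form an enzyme that cleaves C3. In the alternative pathway factor B (Cfb), cut by factor D (Cfd, adipsin), forms the corresponding enzyme, and both routes meet at C3. Serping1 encodes C1 inhibitor, the plasma protein that blocks C1r and C1s. Most components of plasma are secreted by the liver, C1q is made largely by macrophages and related myeloid cells, and adipsin is a classic product of adipocytes.

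All 8 genes are protein-coding and lie on the minus strand of GRCm38. The C1q genes stand side by side on chromosome 4, with C1qb at chr4:136880129-136886187, C1qc at chr4:136889804-136893065 and C1qa at chr4:136895917-136898803. C4b (chr17:34728380-34743882), Cfb (chr17:34856374-34862518) and C2 (chr17:34862604-34898265) are neighbours in the major histocompatibility region of chromosome 17. C3 lies further along that chromosome, at chr17:57203970-57228136, next to the region of Adgre1 at chr17:57358691-57483527. Serping1 is at chr2:84765387-84775444. The annotation places a read-through gene, Gm20547, over both Cfb and C2, and the C4 paralog C4a near C4b, so estimated counts could be divided among near-identical or overlapping sequences. The counts given to C4a were a median of 0.704% of those given to C4a and C4b together. Gm20547 held a median of 13.3% of its own counts plus those of C2, and of 5.52% of its own plus those of Cfb.

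The promoters of C1qb, C1qc and C3, each from 250 bases before to 50 bases after the RefSeq start site in GRCm38.p6, are shown because they are the members with a promoter in the sequence table used here. Capitals mark a match to the PU.1-type motif AGGAAGT in C1qb and C1qc, and to the C/EBP-type motif TTNNGCAA in C3, both read here on the strand opposite to the motif as spelled. PU.1 is a transcription factor of myeloid cells, and C/EBP factors act in hepatocytes, adipocytes and myeloid cells.
C1qb (chr4:136886151-136886450, minus strand): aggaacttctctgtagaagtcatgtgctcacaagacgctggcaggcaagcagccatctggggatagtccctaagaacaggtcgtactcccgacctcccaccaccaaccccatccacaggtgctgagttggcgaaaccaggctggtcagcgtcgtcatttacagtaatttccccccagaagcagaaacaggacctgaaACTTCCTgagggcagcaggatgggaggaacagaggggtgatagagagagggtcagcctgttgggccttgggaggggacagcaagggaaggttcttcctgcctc
C1qc (chr4:136892865-136893164, minus strand): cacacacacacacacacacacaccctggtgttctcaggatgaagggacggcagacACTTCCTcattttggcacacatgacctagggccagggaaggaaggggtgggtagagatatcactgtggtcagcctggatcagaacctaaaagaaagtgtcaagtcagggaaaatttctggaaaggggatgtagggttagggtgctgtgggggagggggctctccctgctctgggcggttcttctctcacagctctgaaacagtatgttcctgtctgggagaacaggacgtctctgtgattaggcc
C3 (chr17:57228087-57228386, minus strand): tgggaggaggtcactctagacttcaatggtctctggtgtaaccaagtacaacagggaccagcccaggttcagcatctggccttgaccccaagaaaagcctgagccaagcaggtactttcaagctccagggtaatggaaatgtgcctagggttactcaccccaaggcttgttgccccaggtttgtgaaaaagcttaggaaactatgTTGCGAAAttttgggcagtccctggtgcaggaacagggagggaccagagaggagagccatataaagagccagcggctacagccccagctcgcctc
Counted from the RefSeq start site, the capitals begin at position -53 in C1qb, -195 in C1qc and -45 in C3. In GENCODE, C1qc begins upstream of its RefSeq start, at chr4:136893065, within the printed window. With both strands searched, 9.35% of 32851 promoters of this length held the PU.1-type motif and 10.8% the C/EBP-type motif. None of the 3 sequences held GAAANNGAA (an interferon-type motif, in 8.56% of promoters) or GGGNNTTCC (an NF-kB-type motif, in 5.82%). A match is a description of letters and not a measured site.

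The libraries held between 35.3 M and 137.8 M estimated counts, with a median of 82.04 M. Counts from genes of the Y chromosome divided them into 48.5% of libraries without and 51.5% with such counts, and since this division moved many values, results are also given inside each of these clusters. Of the fixed marker lists, all 12 macrophage, 12 adipocyte, 12 progenitor and 8 mesothelial genes were detected past the filter. The summed adipocyte markers ranged from 6280 to 40018 CPM (counts per 1000000 of the scaled library total) and the macrophage markers from 345.2 to 6171 CPM. The summed liver markers had a median of 35.1 CPM but reached 7163 CPM in one library, and the skeletal muscle markers reached 8281 CPM. Because liver is the main source of plasma complement, the liver list was set against each transcript: r lay between -0.0774 for C1qb and 0.0836 for Cfb. Without the 38 libraries richest in liver, skeletal muscle, pancreas or epididymis markers, r of C1qb with Adgre1 was 0.898 and r of C3 with Pdgfra 0.469, beside 0.901 and 0.472 over all mice.

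C3, the central component, was the most abundant of the 8 transcripts, in CPM and per kilobase of exon. Its level ran from 393.2 to 6461 CPM, the median being 1346 CPM (mean 1536 ± 816, SD over all mice). Its median was 1767 CPM in libraries without Y counts and 998 CPM in those with them. C3 was thus the member with the largest fall of the median between these clusters, to 0.565 of the level without Y counts, although their ranges overlapped.

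C4b, which encodes the C4 of the classical pathway, had the widest spread. Its values ran from 72.8 to 2355 CPM around a median of 538.7 CPM (mean 648.8 ± 411.4, SD). The direction between clusters was opposite to that of C3, with medians of 364.9 CPM without and 769 CPM with Y counts, a ratio of 2.11. Between the 5th and 95th percentile C4b spanned 7.98-fold, and its biological coefficient of variation was 61.5%, against a median of 31.2% over all genes. C2, which supplies the protease of the same convertase, was the least abundant member on both scales. Its lowest value was 11.03, its median 60.7 and its highest 167.9 CPM (mean 64.8 ± 26.4, SD), and its median was lower with Y counts, at 55.3 CPM, than without, at 67.1 CPM.

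The C1q chains lay close together. C1qa ranged from 36.1 to 427.8 CPM (median 89, mean 99.5 ± 44.5, SD), C1qb from 25.6 to 327.2 CPM (median 66.3, mean 79.4 ± 42.8) and C1qc from 29.97 to 364.6 CPM (median 77.96, mean 87.95 ± 41.3). Their medians were 1.20, 1.30 and 1.25 times as high in libraries with Y counts. The same animal, mouse DO088, had the highest value of all chains and of Serping1 and Pdgfra, and the highest macrophage marker sum (6171 CPM). Mouse DO283, the shallowest library at 35.3 M counts, had the lowest C1qa, C1qc and C4b.

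Cfb lay between 3.004 and 588.5 CPM around a median of 153.5 CPM (mean 172.1 ± 83.9, SD), and its median was 126.4 CPM without and 191.1 CPM with Y counts. A single library stood far below the rest: mouse DO069 had 3.004 CPM of Cfb from 383.6 estimated counts, while the next lowest library had 33.7 CPM. The adjoining gene C2 was at 62.1 CPM in that mouse, with 53% of mice lower. In mouse DO246 the order was turned around, with the lowest C2 (11.03 CPM, next lowest 16.5) beside 204.1 CPM of Cfb. The read-through gene Gm20547 was at its lowest level in mouse DO246 (0.178 CPM) and at its second lowest in mouse DO069 (0.885 CPM), against a median of 9.32 CPM.

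Serping1 varied least. It ranged from 101.2 to 576.6 CPM (median 236.6, mean 249.8 ± 77.8, SD) with a biological coefficient of variation of 30.2%, near the median of all genes. Per kilobase of exon, the median levels ran from C3 (261.7 CPM per kb) through Serping1 (101.8), C4b (94.6), C1qa (85.6), C1qb (60.97), Cfb (54.3) and C1qc (40.4) to C2 (15.7). C3 exceeded Serping1 in every mouse, C1qa exceeded C1qb in 98.3% and C1qc exceeded C2 in 97.4%. The other neighbours changed places often: C4b exceeded C1qa in 52.6% of mice, C1qb exceeded Cfb in 63.9%, Cfb exceeded C1qc in 73.9%, and Serping1 exceeded C4b in 55.6%, namely 75.8% of those without Y counts but 36.5% of those with them.

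**Figure D1:**
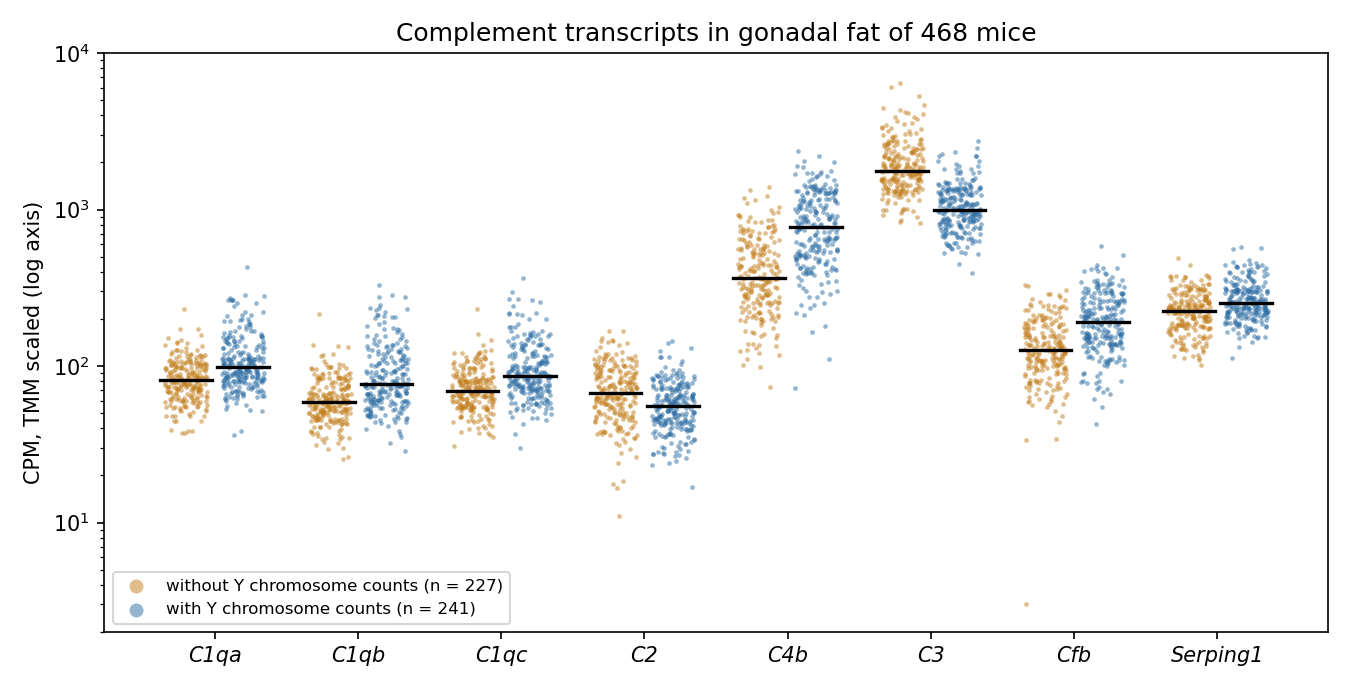
Level of each complement transcript in the adipose libraries, 1 point per mouse, in CPM on a log axis, with libraries without and with Y chromosome counts side by side and a bar at each median. The clusters overlap for every gene, C3 is lower and C4b higher with Y counts (medians 1767 and 998, 364.9 and 769 CPM), and 1 Cfb value of 3.004 CPM lies apart.

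The macrophage gene Adgre1 separated the members most clearly. Over all mice, 6 of the 8 transcripts rose with Adgre1 (C1qa, C1qb, C1qc, C4b, Cfb and Serping1), while C2 and C3 were weakly lower, at an adjusted p under the threshold of 0.05 in permutation tests across all genes. The background was broad, since 37% of all genes rose and 40.8% fell with Adgre1, so that such a count alone sets nothing apart. The sizes of r were less common. For C1qb r was 0.901 (Spearman's rho 0.866), a higher value than in 99.7% of genes, and for C1qa and C1qc it was 0.877 and 0.873 (rho 0.839 and 0.833, adjusted p = 1.76e-05 for r of each chain). An unadjusted p of 1e-05 is the smallest that these permutations can give.

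This relation of C1q to Adgre1 held inside both clusters and across the order of the mice. For C1qb, r was 0.798 without and 0.921 with Y counts, and lay between 0.884 and 0.923 in 5 successive blocks of mouse numbers. It was 0.904 once the 2 libraries farthest from the median of Adgre1 were left out. C1qb, the chain with the highest r, exceeded C1qc by a small margin (r of the difference with Adgre1 0.113, permutation p = 0.0145), and its difference from C1qa did not pass (p = 0.0962). In all, 84 such differences were compared (28 pairs of members with 3 references) and these p-values are not adjusted.

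C4b followed with r = 0.709 (rho 0.770), then Serping1 with 0.685 (rho 0.657) and Cfb with 0.528 (rho 0.601). All of these held inside both clusters, at 0.595 and 0.652 for C4b, 0.576 and 0.729 for Serping1, and 0.365 and 0.485 for Cfb, without and with Y counts. The difference between C4b and Serping1 in their relation to Adgre1 did not pass (r of the difference 0.0295, permutation p = 0.523), whereas both differed from C1qb (r of the difference 0.264 and 0.289, p = 1e-05 for each).

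For C3 the pooled value stood for neither cluster. Its r with Adgre1 was -0.106 over all mice (rho -0.168, adjusted p = 0.0282). Without Y counts r was -0.107 (permutation p = 0.107), and with Y counts it was 0.574 (p = 1e-05). In blocks of mouse numbers, where both clusters are mixed, it ran from -0.235 to 0.0411. C2 had a pooled r of -0.164 (adjusted p = 0.000616) with Adgre1, made up of 0.112 (p = 0.0917) without and -0.204 (p = 0.00145) with Y counts.

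**Figure D2:**
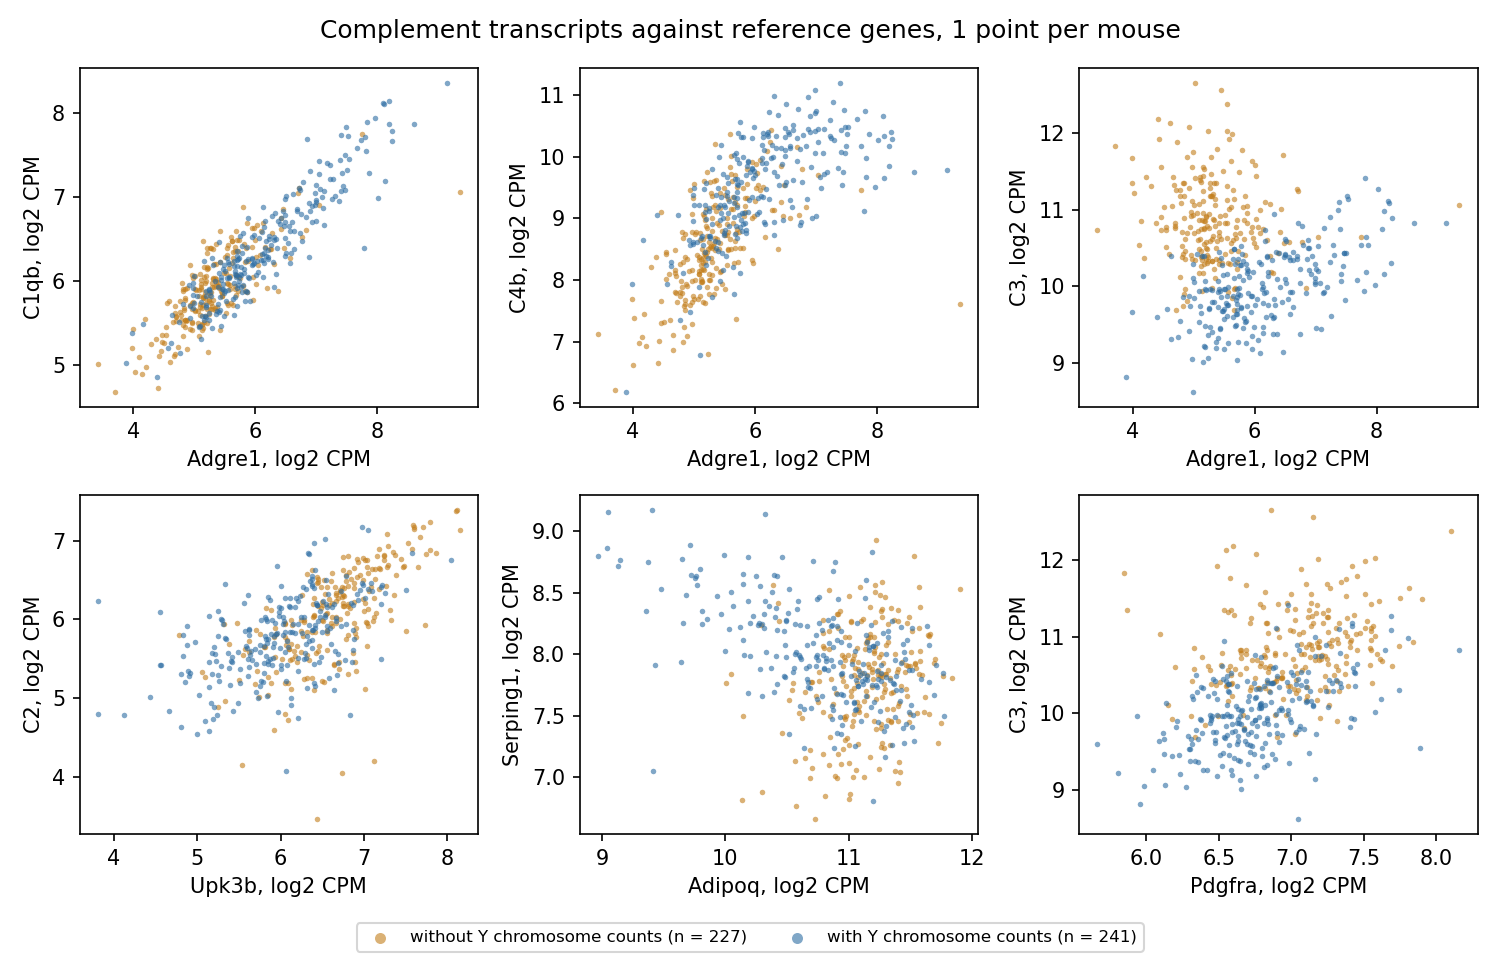
Each panel plots a complement transcript against a reference gene, both in log2 CPM, with 1 point per mouse and libraries without and with Y chromosome counts in separate colours. C1qb rises with Adgre1 along a narrow band in both clusters (r = 0.798 and 0.921), while C3 rises with Adgre1 only among the libraries with Y counts (r = 0.574).

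Adipoq gave a mirror image in the pooled values, but the clusters differed in sign for most members. C1qa (r = -0.441), C1qb (-0.484), C1qc (-0.430), C4b (-0.371), Serping1 (-0.350) and Cfb (-0.244) fell as Adipoq rose (adjusted p = 2.3e-05 for each), where 34% of all genes rose and 36.4% fell. Inside the cluster with Y counts these r values ran from -0.579 for C1qb to -0.337 for Cfb. Inside the other cluster all 6 were positive, from 0.0861 for C1qb to 0.248 for Cfb. There C1qb and C1qc did not pass (unadjusted permutation p = 0.195 and 0.128). C2 was the only member that rose with Adipoq in both, with r = 0.305 pooled, 0.236 without and 0.268 with Y counts. C3 showed no pooled relation (r = 0.0609, adjusted p = 0.229), with -0.00631 and -0.415 in the clusters.

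The references were themselves related, since Adgre1 and Adipoq had r = -0.512 over all mice (0.0408 without and -0.591 with Y counts). Adgre1 and Pdgfra had r = 0.260. With the whole adipocyte marker list in place of Adipoq, r of the C1q chains lay between -0.708 and -0.647. With that list the C1q chains, C4b, Cfb and Serping1 had a negative r inside both clusters. Without Y counts it ran from -0.516 (C1qb) to -0.0324 (Cfb), and with Y counts from -0.706 (C1qb) to -0.378 (Cfb). C2 had -0.0217 without and 0.244 with Y counts, and C3 had 0.0831 and -0.491.

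With Pdgfra, C3 had the highest r of the 8 transcripts over all mice, but not inside either cluster. Its r was 0.472 (rho 0.505), with 0.252 without and 0.506 with Y counts, where Serping1 had 0.492 and 0.516 and C1qa 0.459 and 0.593. Serping1 (r = 0.376), C1qa (0.370), C1qc (0.340), C1qb (0.306) and C2 (0.233) also rose, with an adjusted p of 5.67e-05 for each, where 21.9% of all genes rose and 25.6% fell. C4b (r = 0.0956, adjusted p = 0.0777) and Cfb (r = -0.0302, adjusted p = 0.618) did not pass. Inside the clusters C4b had r = 0.374 without and 0.256 with Y counts, and C2 had 0.359 and -0.0334. The median of Pdgfra was 132.2 CPM without and 107.1 CPM with Y counts, opposite in direction to that of C4b. With the list of 12 progenitor markers, which includes collagen genes, the C1q chains had higher r (0.620 to 0.672) and C3 a lower one (0.192) than with Pdgfra alone. Inside the clusters this list gave C3 r = 0.0237 without and 0.486 with Y counts, and C1qb 0.675 and 0.741.

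**Figure D3:**
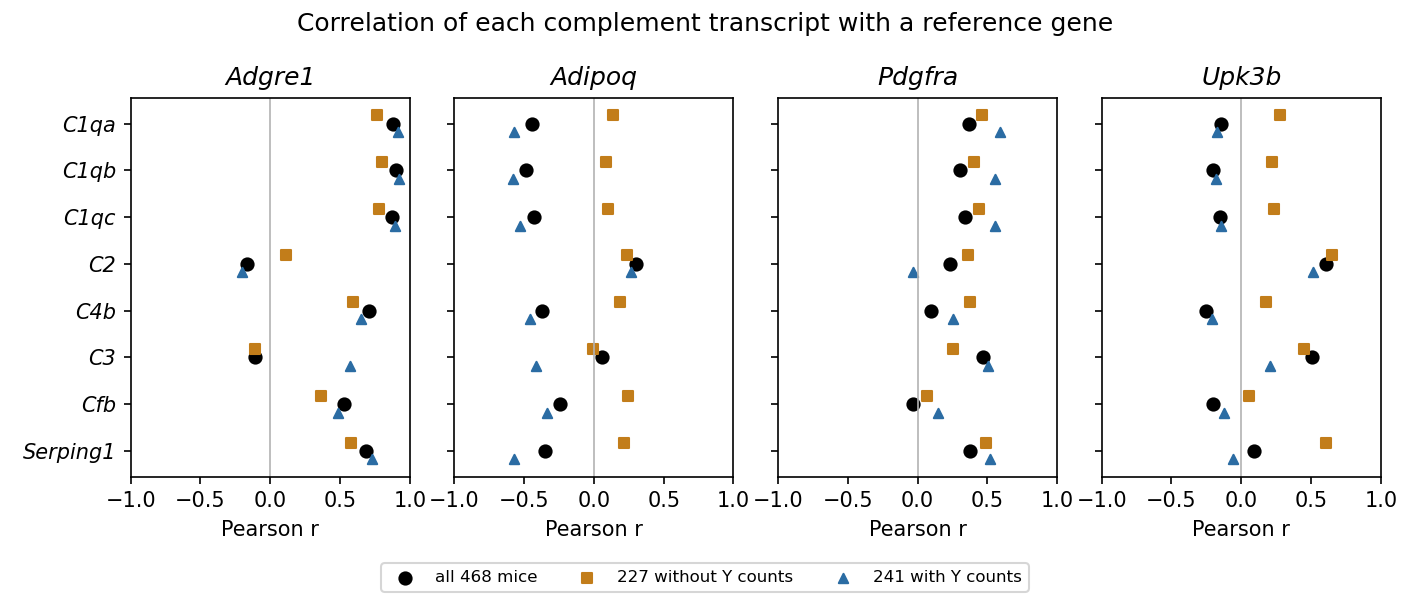
Pearson r of each complement transcript (rows) with Adgre1, Adipoq, Pdgfra and Upk3b (panels), over all mice and separately in the libraries without and with Y chromosome counts. The C1q chains lie at 0.873 to 0.901 with Adgre1, C2 lies at 0.607 with Upk3b, and the clusters fall on opposite sides of 0 for most genes with Adipoq.

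Among the pairs of a member with a reference gene other than Adgre1, C2 and the mesothelial gene Upk3b had the highest r. C2 had r = 0.607 with Upk3b (rho 0.630), and the relation held without (0.649) and with Y counts (0.515) and in every block of mouse numbers (0.489 to 0.738). C3 came next with r = 0.505, at 0.453 without and 0.208 with Y counts. The other side held C4b (-0.253), Cfb (-0.206), C1qb (-0.2005), C1qc (-0.154) and C1qa (-0.149), all negative at an adjusted p under 0.05, where 29.8% of all genes rose and 31.8% fell with Upk3b. These 5 members were negative inside the cluster with Y counts (-0.207 for C4b to -0.124 for Cfb) but positive inside the other (0.0541 for Cfb to 0.277 for C1qa). Serping1 did not pass in the pooled test (r = 0.0940, adjusted p = 0.0669), although its r was 0.607 without and -0.0590 with Y counts. The list of 8 mesothelial markers gave the same order, with r = 0.579 for C2, 0.393 for C3 and 0.199 for Serping1.

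The reference genes were next fitted together, to obtain the slope of each transcript on 1 reference with the others and the presence of Y counts held fixed. The slopes come from edgeR's quasi-likelihood test and are log2 changes per SD of the reference over the mice, with 1 SD being 0.90, 0.52 and 0.41 on the log2 scale for Adgre1, Adipoq and Pdgfra. On Adgre1, 6 members rose, none fell and 2 did not pass, where 30.3% of all genes rose and 43.6% fell. C4b had the steepest slope, 0.60 ± 0.04 (SE, adjusted p = 4.79e-36), or 1.51-fold per SD. C1qb followed at 0.54 ± 0.02 (adjusted p = 5.48e-115), C1qc at 0.48 ± 0.02, C1qa at 0.46 ± 0.02, Cfb at 0.41 ± 0.04 and Serping1 at 0.26 ± 0.02. C2 (-0.06 ± 0.03, adjusted p = 0.0989) and C3 (0.02 ± 0.03, adjusted p = 0.587) did not pass. The slope of C3 turned to -0.23 (adjusted p = 4.92e-12) when the presence of Y counts was left out of the model. C2 passed there too (-0.07, adjusted p = 0.0359).

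On Adipoq only 2 members passed, and in opposite directions. C2 rose by 0.16 ± 0.03 (adjusted p = 2.88e-07) and C3 fell by 0.11 ± 0.03 (adjusted p = 0.000158), against 21.8% of genes that rose and 35.3% that fell. Without the presence of Y counts in the model C3 did not pass (-0.06, adjusted p = 0.107). The C1q chains, whose r with Adipoq alone lay between -0.484 and -0.430, had slopes between -0.03 and 0.00 here.

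On Pdgfra, 6 members rose: C3 (0.17 ± 0.03), C2 (0.16 ± 0.03), Serping1 (0.11 ± 0.02), C1qa (0.08 ± 0.01), C1qc (0.07 ± 0.01) and C1qb (0.06 ± 0.01), with adjusted p between 6.04e-09 and 0.000558. Cfb fell by 0.08 ± 0.03 (adjusted p = 0.0183) and C4b did not pass (0.02 ± 0.03, adjusted p = 0.692). Of all genes 24.3% rose and 26.4% fell. A direct contrast within the fit gave C3 a lower slope on Adgre1 than on Pdgfra, by 0.15 ± 0.05 (adjusted p = 0.00632), and C1qb a higher one, by 0.49 ± 0.03 (adjusted p = 5.53e-52). The contrast of C3 did not pass with Upk3b added to the model (-0.08 ± 0.05, adjusted p = 0.151). Without the presence of Y counts in the model, the slope of C3 on Pdgfra was 0.36, and C4b fell by 0.09 on Pdgfra (adjusted p = 0.00956). With Pdgfra as the only reference and the presence of Y counts held fixed, Cfb rose by 0.08 ± 0.03 (adjusted p = 0.0308). C4b rose by 0.24 ± 0.04 there (adjusted p = 2.2e-09).

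**Figure D4:**
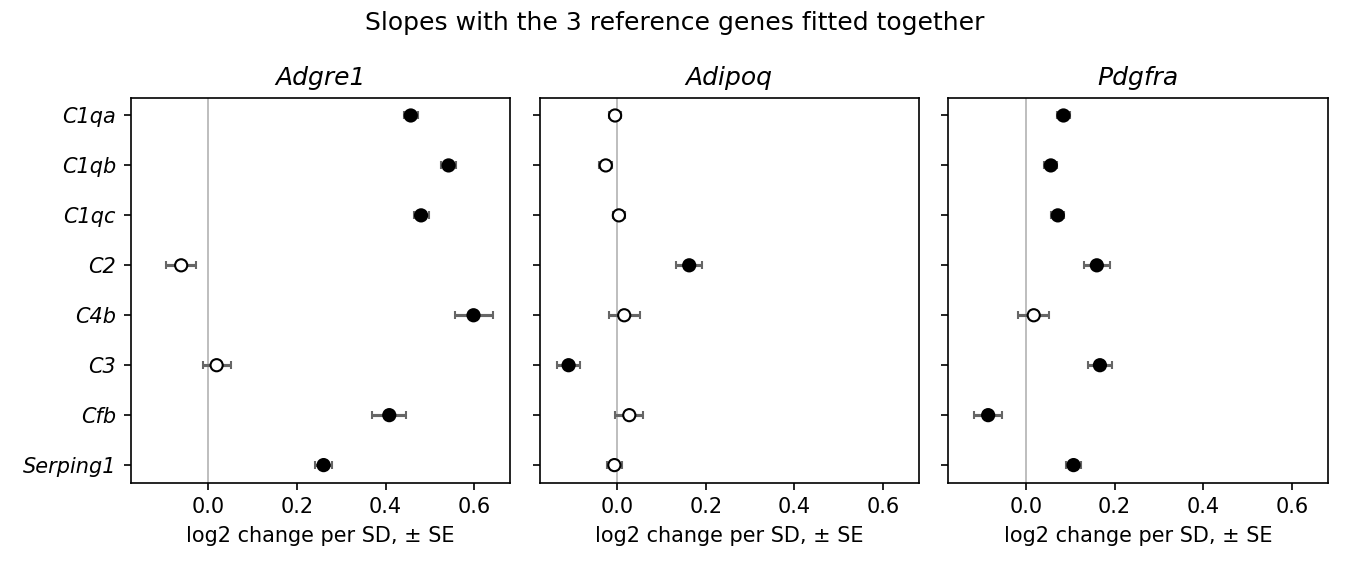
Slope of each complement transcript on Adgre1, Adipoq and Pdgfra from the joint edgeR model, as log2 change per SD of the reference with bars of ± 1 SE. Filled circles have an adjusted p under 0.05 and open circles do not. The slopes on Adgre1 reach 0.60 (C4b), while those on Adipoq and Pdgfra stay within 0.17 of 0.

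Adding Upk3b to these references, a choice made after the relation of C2 to it had been seen, gave C2 a slope of 0.33 ± 0.02 on Upk3b (adjusted p = 1.31e-32), C3 of 0.21 ± 0.03 (4.13e-14), Serping1 of 0.15 ± 0.02 (9.25e-17) and C1qa of 0.03 ± 0.01 (0.0423). The other members did not pass, where 14.1% of genes rose and 18.2% fell. In that model the slope of C2 on Adipoq was 0.05 (adjusted p = 0.133), that of C3 was -0.18, and C1qb (-0.04, adjusted p = 0.0363) and Serping1 (-0.05, adjusted p = 0.00304) passed there. The slopes on Pdgfra were lower, at 0.08 for C2, 0.11 for C3 and 0.07 for Serping1, and still passed. By ordinary regression, Adgre1, Adipoq and Pdgfra together accounted for 81.8% of the variance of C1qb, 79.1% of C1qa and 77.5% of C1qc, and for 51.2% of Serping1 and 51.1% of C4b. The share was 31.1% for Cfb, 28.1% for C3 and 16.1% for C2, beside a median of 13.4% over all genes. For C2 it rose to 37.6% with Upk3b added. For C3 the presence of Y counts alone accounted for 41.1%.

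Among themselves, the C1q chains were the closest set. C1qb and C1qc had r = 0.969, C1qa and C1qb 0.953, and C1qa and C1qc 0.943, each at or above 0.925 in either cluster. The SD of the log2 ratio of C1qb to C1qc over the mice was 0.16, while counting error alone would give 0.03 if all counts were independent. C4b and Cfb had r = 0.733, C1qb and C4b 0.737, and C1qa and Serping1 0.735. Cfb and C2, direct neighbours on chromosome 17, had r = -0.138 pooled, -0.112 without and 0.0324 with Y counts. C2 and C3 had r = 0.399 pooled, 0.425 without and 0.209 with Y counts. With the C1q chains C3 had r of -0.0392 to -0.0027 pooled, -0.0757 to -0.0425 without and 0.568 to 0.598 with Y counts. C3 and C4b, which follow each other in the cascade, had r = -0.217 pooled, -0.135 without and 0.498 with Y counts, and C3 and Serping1 had 0.133, 0.156 and 0.709.

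**Figure D5:**
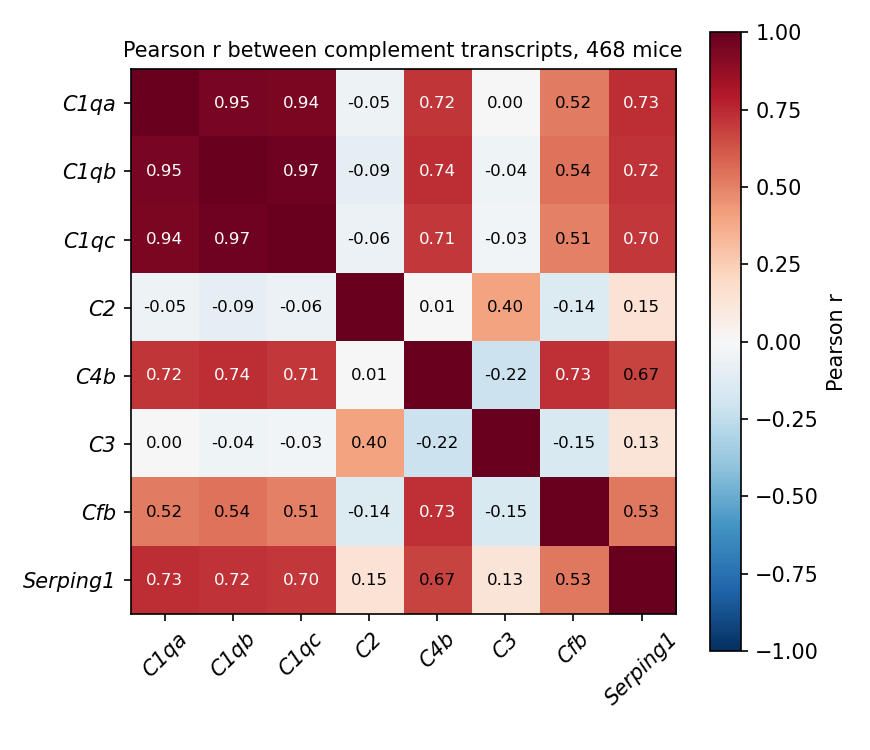
Pearson r between the log2 CPM of each pair of complement transcripts over all mice, printed in each cell and coloured from -1 to 1. The C1q chains form a block at 0.943 to 0.969, and C4b, Cfb and Serping1 join them at 0.507 to 0.737. Over all mice C2 and C3 stand outside with 0.399 between them. C3 had r of 0.433 to 0.709 with the members other than C2 inside the cluster with Y counts, but -0.135 to 0.156 inside the other.

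The genes most like each member were taken by r among the 9500 genes that averaged 10 CPM or more. C1qb lay closest to Fcer1g (r = 0.923), Fcgr3 (0.914), Tyrobp (0.912), Tbxas1 (0.903) and Adgre1, of which Fcer1g and Tyrobp encode signalling adaptors of myeloid receptors and Fcgr3 an Fc receptor. C1qa was closest to Csf1r (0.908), the receptor for macrophage colony-stimulating factor, then to Fcgr3, Fcer1g, Tyrobp and Pld4. C1qc had Fcer1g (0.882), Fcgr3, Csf1r, Adgre1 and Tyrobp.

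C2 was led by Upk3b, followed by Nkain4 (0.587), Myrf (0.561), Osr1 (0.553) and Lrrn4 (0.547), the last also on the mesothelial marker list. C3 had Wt1 (0.662), a transcription factor of mesothelium, before Smarcd2 (0.647), Nbl1 (0.646), Orai3 (0.643) and Cdh11 (0.641), but for these genes r inside the clusters was lower, at 0.411 and 0.474 for Wt1. C4b was nearest to Lrg1 (0.788), a secreted acute-phase glycoprotein, Pros1 (0.784), S100a4 (0.777), Osmr (0.776), a receptor for oncostatin M, and Cd84 (0.775).

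Cfb had Ubd (0.657), H2-DMb1 (0.655), Hp (0.655), Lrg1 (0.654) and Tapbp (0.648). Ubd encodes a ubiquitin-like protein, H2-DMb1 and Tapbp serve antigen presentation, and Hp encodes the acute-phase protein haptoglobin. Serping1 had Plxnb2 (0.790), Tnfrsf1b (0.782), Arhgdib (0.775), Arhgap45 (0.764) and Ahnak2 (0.757). Its r with the macrophage marker list was 0.755, and those of C4b and Cfb were 0.777 and 0.591.

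Of 54 further complement genes on a fixed list, 53 were in the table and 44 passed the filter. In the joint model 21 rose, 11 fell and 12 did not pass on Adgre1, 14 rose and 12 fell on Adipoq, and 18 rose and 5 fell on Pdgfra. The shares of all genes that rose and fell were 30.3% and 43.6% on Adgre1, 21.8% and 35.3% on Adipoq, and 24.3% and 26.4% on Pdgfra. The median slope on Adgre1 was 0.63 over the 11 complement receptors and -0.03 over all genes. The receptors rose in 10 of 11 cases, against 30.3% of all genes, among them C3ar1, the receptor for the C3a fragment (0.91 ± 0.02), C5ar1, a receptor for C5a (0.65 ± 0.03), and Itgb2 (0.82 ± 0.02) and Itgax (1.79 ± 0.07), subunits of receptors for cleaved C3. C3ar1 had r = 0.939 with Adgre1, above every one of the 8 members.

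Of the 5 genes on the C1 protease list, 2 rose, 1 fell and 2 did not pass on Adgre1. C1ra had slopes of 0.11 ± 0.02 on Adgre1 and 0.17 ± 0.01 on Pdgfra, and C1s1 of 0.12 ± 0.02 and 0.14 ± 0.02. C1s2, a paralog of C1s1, fell by 0.49 ± 0.09 on Adgre1 (adjusted p = 4.14e-07), while C1rb (-0.28 ± 0.16) and C1rl (0.00 ± 0.02) did not pass. The level of C1s2 was near the floor, with a median of 0.352 CPM (mean 0.732 ± 5.52, SD over all mice). Its r with Adgre1 alone was 0.105 over all mice, opposite in sign to the slope, so its direction is uncertain. Cfd, the protease of factor B, stood opposite to Cfb on Adgre1, where it fell by 0.65 ± 0.05. On Adipoq Cfd rose by 0.43 ± 0.05, while Cfb did not pass (0.03 ± 0.03, adjusted p = 0.465). The median of Cfd was 2867 CPM without and 813 CPM with Y counts. Cfp, which encodes properdin, the stabilizer of the alternative convertase, rose with Adgre1 (0.31 ± 0.02).

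Of 16 regulators, 6 rose and 8 fell on Adgre1, near the 30.3% and 43.6% of all genes. Cfi, encoding the protease that inactivates C3b and C4b, rose by 0.77 ± 0.12. C1qbp, a mostly mitochondrial protein named for binding C1q, fell by 0.17 ± 0.01. Of the terminal components, which form the membrane pore, 4 of 7 passed the filter. C6 rose on Adgre1 (0.31 ± 0.10) and C8g fell (by 0.30 ± 0.04), while C7 (0.04 ± 0.05) and Hc, the mouse gene for C5 (-0.02 ± 0.15), did not pass.

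The labels give a mouse number and a library number but no batch, so these were the only orders that could be tested. No member was associated with either number in edgeR's quasi-likelihood test with the presence of Y counts held fixed, and none had an unadjusted p under 0.05. The lowest adjusted p was 0.196 for the mouse number and 0.545 for the library number, while 13.7% and 0.294% of all genes were called. Without the presence of Y counts in the model, C4b (adjusted p = 0.00228), Cfb (0.0029), C1qb (0.0341) and C3 (0.0348) passed for the mouse number. With limma, 1 member had an unadjusted p under 0.05 for the mouse number, 0 for the library number, and 0 passed adjustment.

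The slopes on each reference were lastly compared between libraries with and without Y counts. On Adgre1 the difference for C3 was 0.37 ± 0.05 (adjusted p = 1.68e-10), from a slope of -0.09 without to 0.28 with Y counts, and C4b and C2 differed in the other direction. On Adipoq 7 of the 8 members had lower slopes with Y counts, none higher, the exception being C2 (adjusted p = 0.252). Serping1, for example, went from 0.12 ± 0.04 to -0.21 ± 0.02. On Pdgfra the C1q chains and C3 had steeper and C2 a flatter slope with Y counts. Differences of this kind were common in the transcriptome: 21.8% of genes were called higher and 29% lower on Adgre1, 24.5% and 18.9% on Adipoq, and 22% and 22.8% on Pdgfra. Sex is not given in the labels. The numbers of females and males that the paper gives for adipose tissue equal those of the libraries without and with Y counts. The part that other differences between these clusters had in the slopes was not tested.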

How the data were processed

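RNA was sequenced from adipose samples, 1 library per mouse. Per the methods of the study, each end of a read pair was aligned on its own to the combined transcripts of the 8 founders, and abundance was estimated with EMASE in GBRS. The submitters' processing notes name GRCm38 and DESeq2. The authors deposited expected counts per gene, estimated by expectation maximization, of which 34.6% were not whole, and a second table of log2-scale variance-stabilized values from DESeq2, which served as an alternative.

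Counts were scaled by TMM (edgeR 4.0.16, R 4.3.3) and given as CPM or as log2 CPM with a prior count of 2. Genes with at least 10 counts in at least 50% of libraries were kept. Pearson's r and Spearman's rho were tested with 100000 two-sided permutations of the libraries (Python 3.11.15, numpy 2.4.6) and adjusted by Benjamini-Hochberg over all genes. Slopes came from edgeR's quasi-likelihood test on rounded counts, with the presence of Y chromosome counts (the sum of 4 genes above 0) as covariate, because the study used sex and the labels do not give it. A reference gene is left out of its own test. Scripts were tested on simulated data. The members, gene lists and reference genes were chosen with earlier results of these data known. Named genes are the members, the references, the 5 genes nearest to each member in r, and complement genes with a role in the text, of which 1 reference and 1 complement gene are not reported here. Positions and exon lengths are from GENCODE M21.

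Each library is its own animal, and no pair of libraries held identical values. The p-values treat mice as independent, and kinship among them was not modelled. At 35.3 M to 137.8 M counts per library, counting error would be at most 0.02 on the log2 scale for a member if counts were independent. Because each end of a read pair was aligned on its own, the error may be larger. The spread between mice, with an SD of at least 0.44 on that scale for a member, decides the precision. Alternatives were the DESeq2 1.42.0 size factors, total count scaling, limma 3.58.1, other prior counts and filters, added covariates, marker list scores, and subsets of the libraries.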

Additional observations from a re-analysis of the deposited data

Results flagged for a closer look

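The following slopes were picked out because the libraries with Y chromosome counts differed from those without them in a test of the difference itself (edgeR's quasi-likelihood interaction term, adjusted over all genes). Values are slopes with Y counts minus slopes without, in log2 change per SD of the reference gene. On Adgre1, C3 had a steeper slope by 0.37 (adjusted p = 1.68e-10), as did C1qb by 0.0754 (0.0318), while C4b differed by -0.27 (0.00221) and C2 by -0.25 (0.000595). With limma the difference of C4b was -0.146 and did not pass (adjusted p = 0.0745). Of all genes, 21.8% were called higher and 29% lower in this comparison, so 4 of 8 members is close to that background.

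On Adipoq the differences were -0.50 for C4b (adjusted p = 1.17e-07), -0.42 for Cfb (1.79e-07), -0.36 for C1qa (3.29e-10), -0.36 for C1qb (1.67e-08), -0.34 for Serping1 (2.33e-11), -0.31 for C1qc (1.93e-07) and -0.18 for C3 (0.0101). These are 7 of 8 members on the lower side, where 18.9% of all genes fell. Adipoq itself varied less without Y counts, with an SD of 0.33 on the log2 scale against 0.58, and its r with Adgre1 was 0.0408 and -0.591. The part of these values in the differences was not tested.

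On Pdgfra the differences were 0.22 for C1qb (adjusted p = 5.94e-05), 0.16 for C1qc (0.00104), 0.16 for C1qa (0.000601), 0.15 for C3 (0.00527) and -0.27 for C2 (4.5e-06), beside 22% of all genes called higher and 22.8% lower. Mouse DO021, without Y counts, had 656.5 CPM of Adgre1, the highest of all libraries, with C1qb at 133.4 CPM (above 90.6% of mice). In that mouse C1qc was above 94.4%, C1qa above 83.8%, C3 above 82.7% and C2 above 61.5% of mice. Serping1 was above only 35.3%, C4b above 5.98% and Cfb above 2.78%. Its summed macrophage markers, Adgre1 included, were 1683 CPM, against a median of 1124 CPM over all libraries. Leaving out mice DO021, DO069 and DO246, an alternative chosen after the data had been seen, took the difference of C1qb on Adgre1 to 0.0375 (adjusted p = 0.314) and that of Serping1 to -0.126 (0.00261).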

How the results depend on the processing

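Most values kept their direction and their side of the threshold: 96.5% of recomputed r values, 93.9% of joint slopes, 43 of 48 differences of slopes and 42 of 48 slopes on a mouse or library number. Judged by size instead, 87 of 90 counts of genes called stayed near their main value. The r of the C1q chains with Adgre1 stayed between 0.853 and 0.926, and the joint slope of C4b on Adgre1 between 0.56 and 0.71. Total count scaling moved the median r of all genes with Adgre1 from -0.0151 to 0.227 and with Pdgfra from -0.0103 to 0.188. Under it, r of C2 with Adgre1 was 0.0386, of C3 with Adgre1 0.0207, of C3 with Adipoq -0.0115 and of Cfb with Pdgfra 0.192. Given Xist and the presence of Y counts, the r of these pairs became -0.0586, 0.280, -0.250 and 0.111. The progenitor list score gave Cfb 0.315 in place of Pdgfra, and without the 46 shallowest libraries r of C4b with Pdgfra was 0.0517.

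Without the presence of Y counts in the joint model, the slopes on Adgre1 were -0.0674 for C2 and -0.230 for C3. Both of these now passed (adjusted p = 0.0359 and 4.92e-12). The slopes on Adipoq were -0.0208 for C4b and -0.0592 for C3 (no longer passing, adjusted p = 0.107). That of C4b on Pdgfra was -0.0871 (now passing, adjusted p = 0.00956). With an interferon response score added, the slopes on Adgre1 were -0.111 for C2 (now passing, adjusted p = 0.00191) and -0.0122 for C3. On Adipoq they were -0.0370 for C1qb (now passing, adjusted p = 0.0175), -0.00592 for C1qc and -0.000851 for C4b. With Upk3b added, an alternative chosen after seeing the data, the slopes on Adipoq were -0.0360 for C1qb, -0.00728 for C1qc, 0.0456 for C2 and -0.0531 for Serping1. Of these, C1qb and Serping1 now passed (adjusted p = 0.0363 and 0.00304) and C2 no longer did (adjusted p = 0.133). Without those 46 libraries, C4b had -0.0103 on Adipoq and -0.000295 on Pdgfra. The cause of these changes was not tested.

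Among differences between clusters, C1qa on Adgre1 became -0.0258 and C1qb 0.0375 without mice DO021, DO069 and DO246 (also chosen after seeing the data), where Serping1 reached -0.126. With limma, C4b on Adgre1 was -0.146 (adjusted p = 0.0745) and Serping1 on Pdgfra -0.00179. Slopes per 100 mice without the presence of Y counts were -0.0246 for C2, -0.0564 for C3, 0.0111 for Serping1, 0.0527 for C1qb, 0.104 for C4b and 0.0779 for Cfb, those of C4b, Cfb, C1qb and C3 passing (adjusted p = 0.00228 to 0.0348), and 2149 genes were called higher. With limma 0 genes were called higher and 0 lower on the library number, with 1558 at an unadjusted p under 0.05, against 54 called and 1978 for edgeR. No paired analysis was possible because the labels give 1 group, and each mouse number occurs once. Depth limited no member, since the lowest count of any was 383.6, but Gm20547 and C4a share sequence with C2, Cfb and C4b and their counts are estimates.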

Other observations

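Other complement genes with a large spread were not members. C7, a component of the membrane pore, had a median of 8.71 CPM in libraries without and 136 CPM in those with Y counts (mean over all libraries 79.6 ± 85.7 CPM, SD). C6 ranged from 2.15 to 732 CPM with similar medians of 60.5 and 62.9 CPM. Cpn2, a subunit of the carboxypeptidase that inactivates C3a, had medians of 2.78 and 0.193 CPM. Itgax had medians of 3.26 CPM without and 31.3 CPM with Y counts.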
